A study of Mus musculus with 6 samples.

Results

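Gene expression of the muscle acetylcholine receptor was examined in the gastrocnemius, the large fast calf muscle, of young and aged male mice. The genes were chosen by name, with earlier results of these data known. They are the 5 subunits of the muscle nicotinic acetylcholine receptor: Chrna1 (α1), Chrnb1 (β1), Chrnd (δ), Chrne (ε) and Chrng (γ). All 5 had a probe on the array and all 5 were among the 20900 genes that could be tested, although Chrng could be tested only because its probe was detected in aged mice. Total RNA of whole muscle from 3 young mice (13 weeks of age) and 3 aged mice (26 months of age) was measured with 1 single-colour Agilent array per mouse. All mice were C57BL/6J males, and no transgene or treatment is named for either group. An array detected 48.7% to 53.8% of its 55681 probes clearly above background, and no probe was saturated. The tissue label was checked with 11 muscle fibre genes such as Acta1, Ckm and Tnnt3, all of which were measured on every array.

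The muscle receptor is a channel of 5 subunits that opens when acetylcholine released by the motor nerve binds to it. The fetal form holds the γ subunit, and in the adult form at the endplate the ε subunit takes its place, while α1, β1 and δ are shared by both forms. In innervated adult muscle the receptor genes are transcribed mainly by the few nuclei under the nerve ending, and after loss of nerve input the genes of the shared subunits and of γ are known to be transcribed along the fibre again. Myogenic factors such as myogenin act on these genes through E-boxes, and the ε gene is known for an N-box, which is bound by the Ets factor GABP and restricts transcription to the synapse.

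The promoters are shown because the E-box and the N-box are the elements named for these genes in this background. RefSeq sequence (GRCm38.p6) was at hand for 4 of the 5 genes, and Chrnd had no entry. Each stretch below is the 250 bases before the annotated start, read 5′ to 3′ on the strand of the gene, with E-boxes (CANNTG, the same on both strands) and the N-box (CCGGAA, searched on both strands) in capitals.
Chrna1, chr2:73580339-73580588, minus strand: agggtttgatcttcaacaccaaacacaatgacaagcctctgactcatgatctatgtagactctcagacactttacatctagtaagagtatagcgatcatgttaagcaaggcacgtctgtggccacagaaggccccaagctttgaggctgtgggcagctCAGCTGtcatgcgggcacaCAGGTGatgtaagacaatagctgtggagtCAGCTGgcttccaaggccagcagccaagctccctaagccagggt
Chrng, chr1:87205561-87205810, plus strand: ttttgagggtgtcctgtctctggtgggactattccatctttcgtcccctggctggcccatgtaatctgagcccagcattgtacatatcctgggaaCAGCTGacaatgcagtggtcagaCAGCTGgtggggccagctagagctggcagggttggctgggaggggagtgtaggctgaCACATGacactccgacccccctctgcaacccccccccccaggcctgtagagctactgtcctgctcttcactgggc
Chrnb1, chr11:69795938-69796187, minus strand: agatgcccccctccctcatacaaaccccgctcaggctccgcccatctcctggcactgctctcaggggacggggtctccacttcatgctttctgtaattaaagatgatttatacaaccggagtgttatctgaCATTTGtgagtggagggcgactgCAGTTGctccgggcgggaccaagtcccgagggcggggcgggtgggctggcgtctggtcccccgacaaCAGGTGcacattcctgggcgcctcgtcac
Chrne, chr11:70619195-70619444, minus strand: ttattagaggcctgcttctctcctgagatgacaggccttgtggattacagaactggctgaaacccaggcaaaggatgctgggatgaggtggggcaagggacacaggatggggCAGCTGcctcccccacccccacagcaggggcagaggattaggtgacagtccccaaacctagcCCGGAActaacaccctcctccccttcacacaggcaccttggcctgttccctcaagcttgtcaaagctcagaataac

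The Chrna1, Chrng and Chrnb1 stretches each held 3 E-boxes, and the Chrne stretch held 1. Of all 32851 promoters in the table, 66.2% held at least 1 E-box within the same length and 31.8% held at least 2, so that an E-box by itself is common. The particular E-box CAGCTG occurred 2 times in Chrna1, beginning 92 and 44 bases before the start, and 2 times in Chrng, beginning 155 and 132 bases before it. At least 2 copies of CAGCTG were present in 1.26% of all promoters, and at least 1 copy in 13.0%. Chrne held 1 copy of CAGCTG, 138 bases before the start, and Chrnb1 held none. The N-box was found in Chrne, 76 bases before the start, and in none of the other 3 stretches, and 12.0% of all promoters held it. These matches describe letters in a window and were not tested for function. Chrnd and Chrng lie next to each other on chromosome 1 with 0 annotated genes between them, whereas Chrnb1 and Chrne, both on chromosome 11, are separated by 70 genes.

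In the aged muscles, the signals of Chrna1, Chrnb1 and Chrnd were higher than in any young muscle, by 2.21- to 3.56-fold on average, whereas that of Chrne was not, and Chrng was detected in aged mice alone. Values below are log2 signals of each gene's own probe, on which 0 is the 75th percentile of all probes of that array, so they compare mice and not genes. Chrng passed the filter through the aged arrays alone and is left out of the counts that follow, which cover the 4 subunits detected on all 6 arrays. Of these 4, 3 had every aged mouse above every young mouse, as had 7.92% of the 20900 genes tested, and 0 had every aged mouse below every young mouse, as had 13.9%. An unadjusted p under 0.05 in limma with a higher aged mean was found for 3 of the 4 and for 6.07% of all genes, and with a lower aged mean for 0 of the 4 and for 8.36%. No subunit passed an adjusted p of 0.05, which 0.196% of all genes passed with higher and 0.0574% with lower values in aged mice. The median difference over the 4 subunits was 1.45 on the log2 scale, and over all genes it was -0.06. The values over all genes include genes detected on only 3 arrays, whereas the 4 subunits were detected on all 6. The subunits were chosen with earlier results of these data known, so these counts and shares describe them and are not a test. Because RNA came from whole muscle, more cells or nuclei of a kind and more RNA in each of them cannot be told apart.

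**Figure D1:**
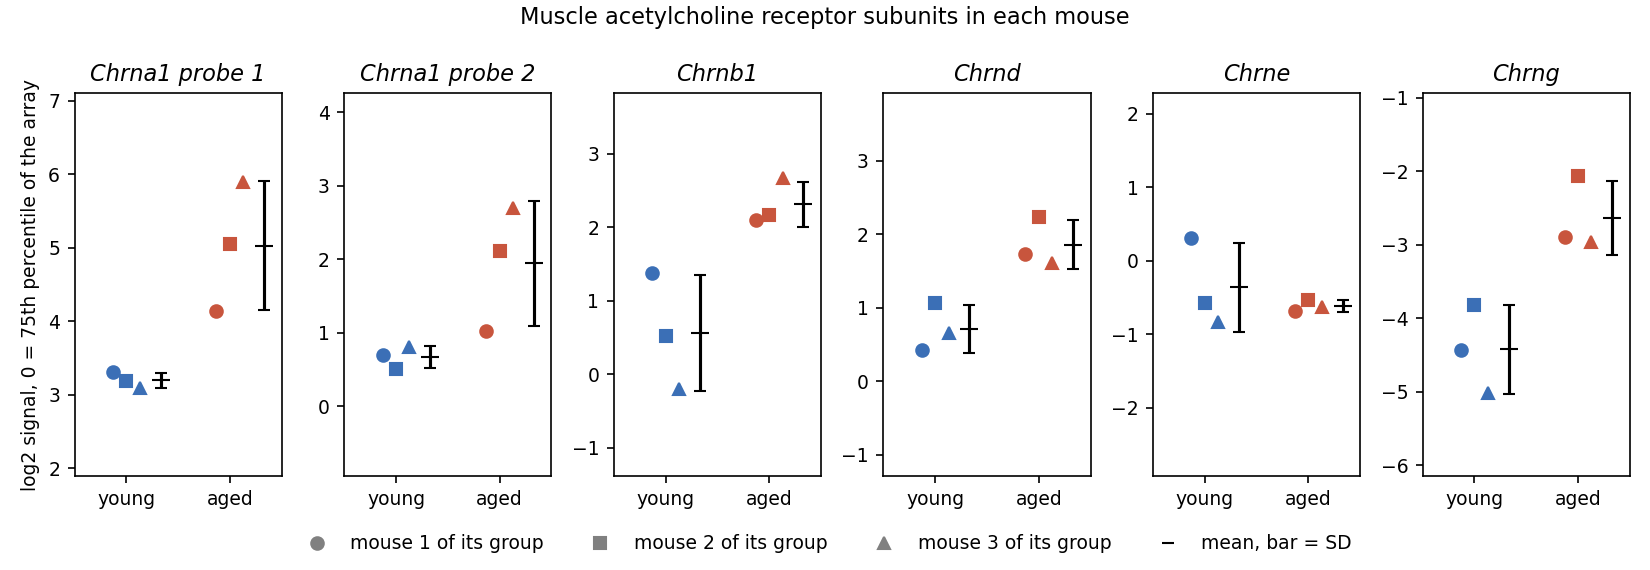
Log2 signal of each probe of the 5 subunits (vertical axis, 0 = 75th percentile of the array) in 3 young mice (blue) and 3 aged mice (red), each panel with its own axis of the same span. Symbols mark single mice, and the black line and bar give the mean and SD. Young and aged mice are separate for both Chrna1 probes, Chrnb1, Chrnd and Chrng, and they overlap for Chrne, where young mouse 1 lies apart at 0.31.

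Chrna1 encodes the α1 subunit, which carries the main part of the acetylcholine binding sites and is needed by the fetal and the adult receptor alike. Its brighter probe (A_52_P533707, NM_007389) read 3.30, 3.19 and 3.09 in the young mice and 4.14, 5.05 and 5.90 in the aged mice, given here and below in the order of mice 1 to 3. The young mice were within 0.11 (SD) of their mean of 3.20, while the aged mice were spread widely (mean 5.03 ± 0.88, SD, n = 3), with aged mouse 1 nearest to the young group. The aged mean was 3.56-fold higher (log2 1.83, SE 0.42, 95% interval 0.85 to 2.82), which ranked 165 among the increases of 20900 genes, with an adjusted p of 0.153 in limma. A second probe of the same transcript (A_55_P2130987) gave 0.69, 0.51 and 0.80 in young mice and 1.02, 2.12 and 2.70 in aged mice. Here too no mouse overlapped and aged mouse 1 was the lowest of its group, and the difference was 2.42-fold (log2 1.28), with an adjusted p of 0.267 over 28002 probes against 0.168 for the first probe. Without aged mouse 1 the first probe differed by 2.28 with an adjusted p of 0.0349 in limma. Aged mouse 1 shared the first row of the slide with the young mice, and aged mice 2 and 3 were in the second row. Without aged mouse 1, age and slide row therefore cannot be told apart. With the row as a block, only aged mouse 1 is compared with the young mice, and the difference was 0.95.

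Chrnb1 encodes the β1 subunit, which is likewise part of both receptor forms and contacts the anchoring protein rapsyn. Its probe (A_51_P475342, NM_009601) read 1.37, 0.51 and -0.21 in young mice and 2.10, 2.16 and 2.66 in aged mice. In contrast to Chrna1, the young mice were the ones that varied (0.56 ± 0.79) and the aged mice lay close together (2.31 ± 0.31, SD, n = 3 each). The lowest aged mouse was still above young mouse 1, the highest of the young. The aged mean was 3.36-fold higher (log2 1.75, SE 0.40, 95% interval 0.80 to 2.70), rank 195 among the increases, with an adjusted p of 0.153.

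Chrnd encodes the δ subunit, which forms a binding site together with α1 and is also shared by both forms. Young mice read 0.43, 1.07 and 0.65 with its probe (A_55_P2110548, NM_021600), and aged mice read 1.73, 2.24 and 1.61. Both groups were about equally spread (0.72 ± 0.33 and 1.86 ± 0.34, SD, n = 3 each), and no mouse overlapped. The difference was smaller than those of Chrna1 and Chrnb1 in size, 2.21-fold (log2 1.14, SE 0.25, 95% interval 0.55 to 1.73, rank 563), but its adjusted p was similar, at 0.149.

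Chrng encodes the γ subunit of the fetal receptor. Its probe (A_51_P288010, NM_009604) was well above background in 0 of 3 young mice and in 3 of 3 aged mice. The signals as deposited were 13.9, 18.3 and 6.44 in young mice and 41.6, 68.7 and 34.7 in aged mice, all of them faint. On the log2 scale these were -4.43, -3.82 and -5.02 against -2.90, -2.06 and -2.96, and the groups did not overlap. The young arrays give no more than an upper limit, whose mean was -3.96. The limit was the lowest signal well above background on the array, or Chrng's own signal where that was higher, as in young mouse 2. By this limit the aged mean of -2.64 was at least 2.50-fold higher. On the measured values the difference was 1.78 (young mean -4.42). Its p is not given, because the young values were not well above background. With normexp background correction, which adds 50 to signals of this size, the difference was 0.33, still in the same direction.

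Chrne encodes the ε subunit of the adult receptor. Its probe (A_55_P2180470, NM_009603) was well above background on all 6 arrays and read 0.31, -0.58 and -0.83 in young mice and -0.68, -0.53 and -0.64 in aged mice. The aged mice were nearly equal (-0.62 ± 0.08) and fell within the range of the young mice (-0.37 ± 0.60), in which young mouse 1 stood above the other two. The aged level was 0.840-fold that of young mice (log2 -0.25, SE 0.30, 95% interval -0.97 to 0.46), with an adjusted p of 0.724. Without young mouse 1 the difference was 0.086, so its sign rests on that mouse. The interval leaves room for a decrease of up to 0.97 and an increase of up to 0.46 on the log2 scale, and these arrays do not show that Chrne was the same in both groups.

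A two-sided exact permutation test of each gene over the 6 mice gave p = 0.1 for Chrna1, Chrnb1 and Chrnd, the smallest value that 3 against 3 mice allow, and p = 0.8 for Chrne. The number of mice limits the precision of all these values.

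Whether the subunits differed from one another was examined within each array, where the scaling cancels. The difference in log2 signal between a pair of subunits was taken in each mouse and compared between the groups for all 10 pairs. Relative to Chrne, the 3 shared subunits were higher in each aged mouse than in any young mouse. The shift was 2.09 for Chrna1, 2.002 for Chrnb1 and 1.39 for Chrnd (0.91 without young mouse 1), each with an exact permutation p of 0.1 (0.2 after Benjamini-Hochberg adjustment over the 10 pairs), the smallest possible here. Chrnb1 minus Chrne varied little within the groups (SD 0.26 in young and 0.33 in aged mice), and both genes were at their highest young value in mouse 1. The 4 pairs with Chrng rest on young signals that were not well above background, so they are given as measured values with no test. Chrng minus Chrne differed by 2.04 between the groups and Chrng minus Chrnd by 0.64, but with normexp these were 0.53 and -0.72. Chrna1 minus Chrng differed by 0.05 (1.48 with normexp) and Chrng minus Chrnb1 by 0.03 (-1.30 with normexp).

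**Figure D2:**
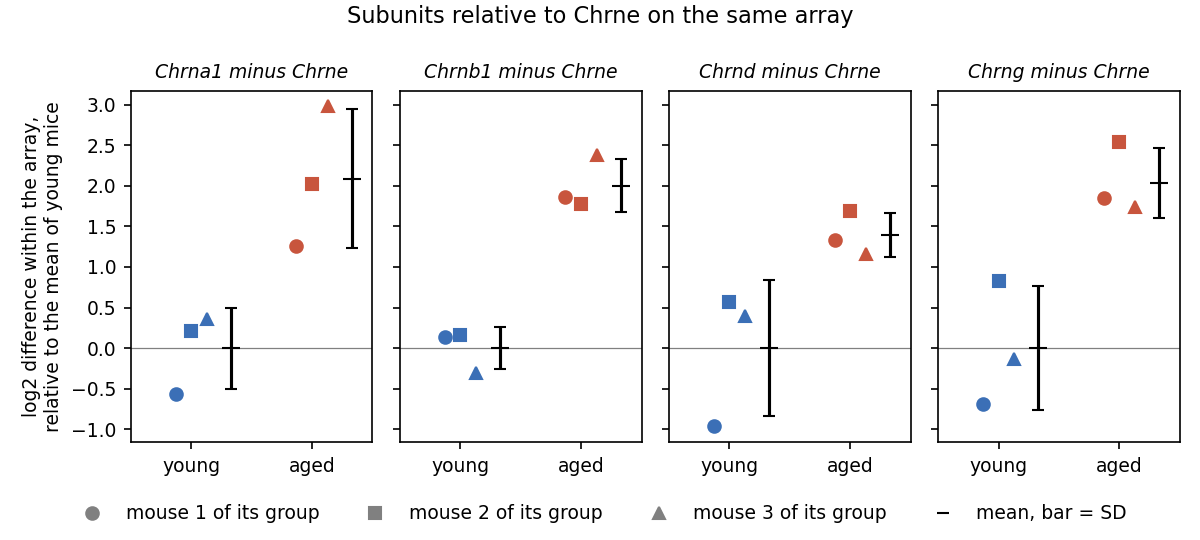
Log2 difference between each of 4 subunits and Chrne on the same array (vertical axis, shifted so that the mean of young mice is 0) in 3 young and 3 aged mice. Symbols mark single mice, and the line and bar give the mean and SD. All 3 aged mice lie above all 3 young mice in each panel, with mean shifts of 2.09, 2.002, 1.39 and 2.04 from left to right, the last of which rests on young Chrng signals not well above background.

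The pairs among α1, β1 and δ overlapped between the groups. The shift was 0.08 for Chrna1 minus Chrnb1 (exact permutation p = 0.8). Against Chrnd the shift was 0.69 for Chrna1 (exact permutation p = 0.5) and 0.61 for Chrnb1 (exact permutation p = 0.4). In each of these pairs the SD of at least 1 group exceeded the shift and reached 0.99 for Chrna1 minus Chrnd, so that unequal differences within these pairs could not be told from the variation between mice.

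**Figure D3:**
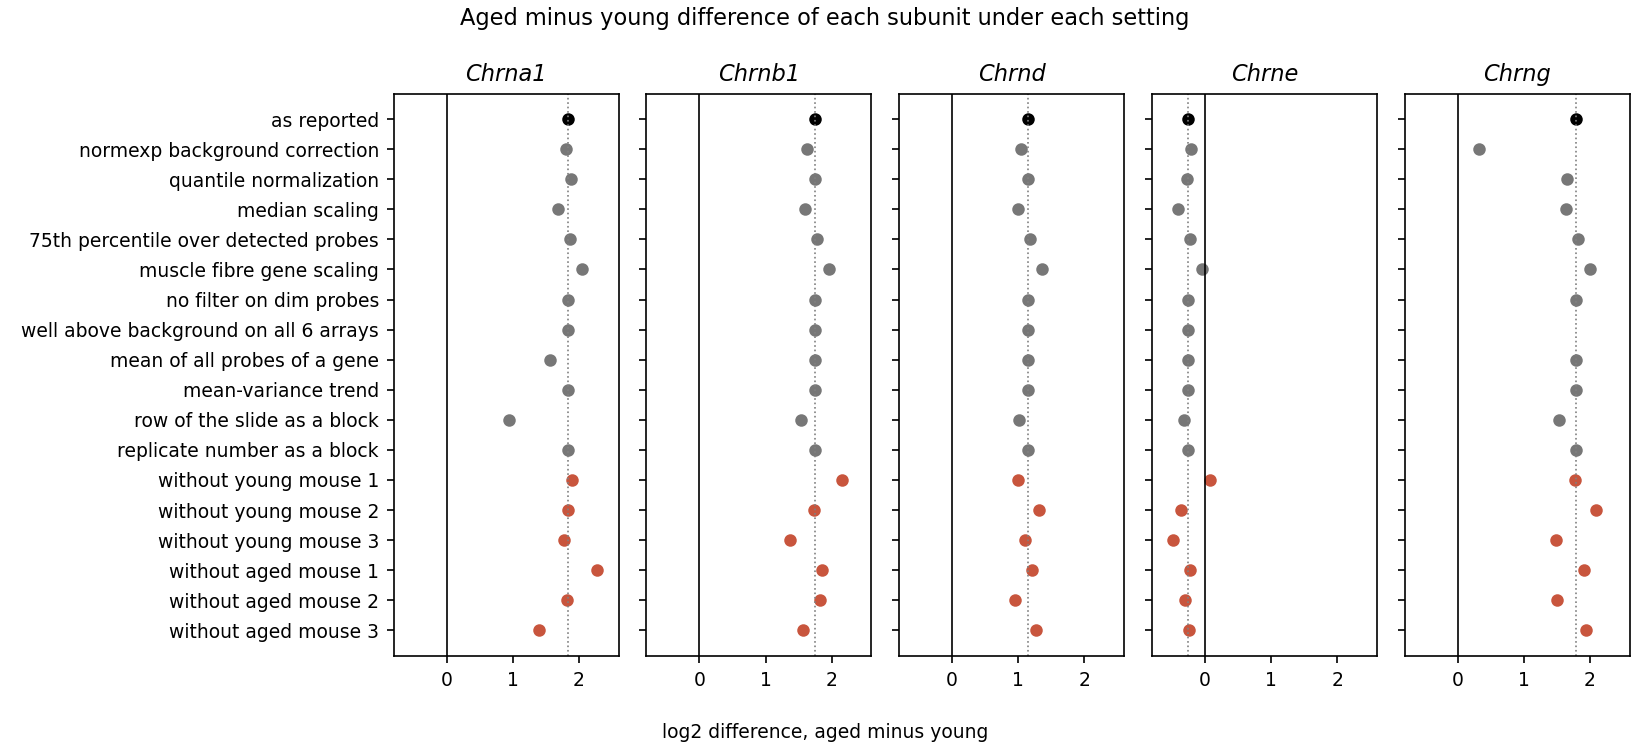
Aged minus young difference on the log2 scale (horizontal axis) of each subunit under each way of processing (rows). The black point is the value as reported, grey points are other settings, red points leave out 1 mouse, and the dotted line marks the reported value. Chrna1, Chrnb1, Chrnd and Chrng stay above 0 throughout, Chrng drops to 0.33 with normexp, Chrna1 ranges from 0.95 with the row as a block to 2.28 without aged mouse 1, and Chrne crosses 0 without young mouse 1.

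Across all 6 mice, Chrnd and Chrng varied most alike (Pearson r = 0.96), although the young Chrng values were not well above background. Chrna1 and Chrnb1 followed with r = 0.87, and the other pairs without Chrne had r from 0.70 to 0.82. With Chrne, r was between -0.45 and 0.11. These coefficients describe 6 arrays in which the age difference itself makes up much of the variation. Among 13843 other genes with a symbol, those most like Chrna1 were 2210016F16Rik (r = 0.995), Casp4 (0.991), Ddx31 (0.988), Pdcd6ip (0.987) and H2ac23 (0.987). Taok3 (0.989), 1700017B05Rik (0.988) and Mthfsl (0.987) were most like Chrnb1, and Gm5458 (0.984), Lrch4 (0.981) and Ahsg (0.977) were most like Chrnd. For Chrng, again with young values not well above background, these were Mmp23 (0.993), Kcne1l (0.986) and Klhl11 (0.985). For Chrne they were Sult2a8 (0.975), Cyb5b (0.959) and Tbc1d1 (0.955). No gene was named for more than 1 subunit.

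The other genes of the receptor's pathway were read from lists arranged by role. Among 9 regulators that act on E-boxes or on the factors that bind them, 8 were tested, of which 4 were higher and 4 lower in aged mice (median 0.24) and 0 had an adjusted p under 0.05. Myog (myogenin) read -0.52, -0.22 and 0.04 in young mice and 1.12, 2.20 and 3.39 in aged mice. As with Chrna1, aged mouse 1 was the lowest and aged mouse 3 the highest of the aged mice, and the groups did not overlap. The Myog difference was 2.47 (5.53-fold, SE 0.54) with an adjusted p of 0.149 in limma. It was 3.03 (adjusted p = 0.0365) without aged mouse 1, where age and slide row coincide, and 1.35 with the row as a block. Myf6, the myogenic factor most abundant in adult fibres, differed by 1.38 (adjusted p = 0.224) and Hdac4, a histone deacetylase that represses repressors of myogenin after denervation, by 0.54 (adjusted p = 0.290), both without overlap. Among 7 genes of synapse-specific transcription through neuregulin and the N-box, 4 were tested and none had an unadjusted p under 0.05 in limma. Erbb2, a neuregulin receptor, differed by 0.22, and Etv5, an Ets factor, by 0.19. The probes of Gabpa, a subunit of GABP, disagreed, with -0.18 for the brighter and 0.59 for the other. Nrg1, Erbb3 and Erbb4 were well above background on 0 arrays.

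Receptor clustering under the nerve depends on agrin from the nerve, its receptor Lrp4, the kinase MuSK and the proteins downstream of it. All 8 listed genes were tested, 3 being higher and 5 lower in aged mice (median -0.18), and 0 had an adjusted p under 0.05. Musk read 3.18, 2.86 and 2.93 in young mice and 3.52, 3.68 and 4.73 in aged mice, a difference of 0.99 (SE 0.33, adjusted p = 0.269) without overlap, which was 0.54 with the row as a block and 0.61 without aged mouse 3. Agrn (agrin), which muscle also expresses, was lower in every aged mouse, with 2.57, 2.58 and 2.75 in young and 1.60, 2.001 and 1.05 in aged mice (difference -1.08, SE 0.26, adjusted p = 0.163). Crk, an adaptor that binds Dok7, differed by -0.34 (adjusted p = 0.379). Rapsn (rapsyn), which anchors the receptor, differed by -0.22, and its groups overlapped.

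Acetylcholine is broken down at the endplate by acetylcholinesterase, which is held in the synapse by the collagen tail ColQ and elsewhere on membranes by PRiMA. All 4 genes of this group had lower means in aged mice (median -0.63), and 1 of them passed the test. Prima1 read 2.13, 1.62 and 1.67 in young mice and -0.59, -0.11 and -0.21 in aged mice. It fell by 2.11 on the log2 scale, to 0.232-fold (SE 0.22, adjusted p = 0.0262 in limma). Among other settings, the adjusted p was above 0.05 when dim probes were kept (0.0898), with the slide row as a block (0.0584) and in 5 of the 6 fits that left out a mouse (0.0845 to 0.111), while the difference stayed between -2.40 and -1.86. Colq (-0.50, adjusted p = 0.312) and Bche (butyrylcholinesterase, -0.72, adjusted p = 0.316) were lower in each aged mouse than in any young mouse, and Ache itself (-0.54, adjusted p = 0.382) overlapped.

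**Figure D4:**
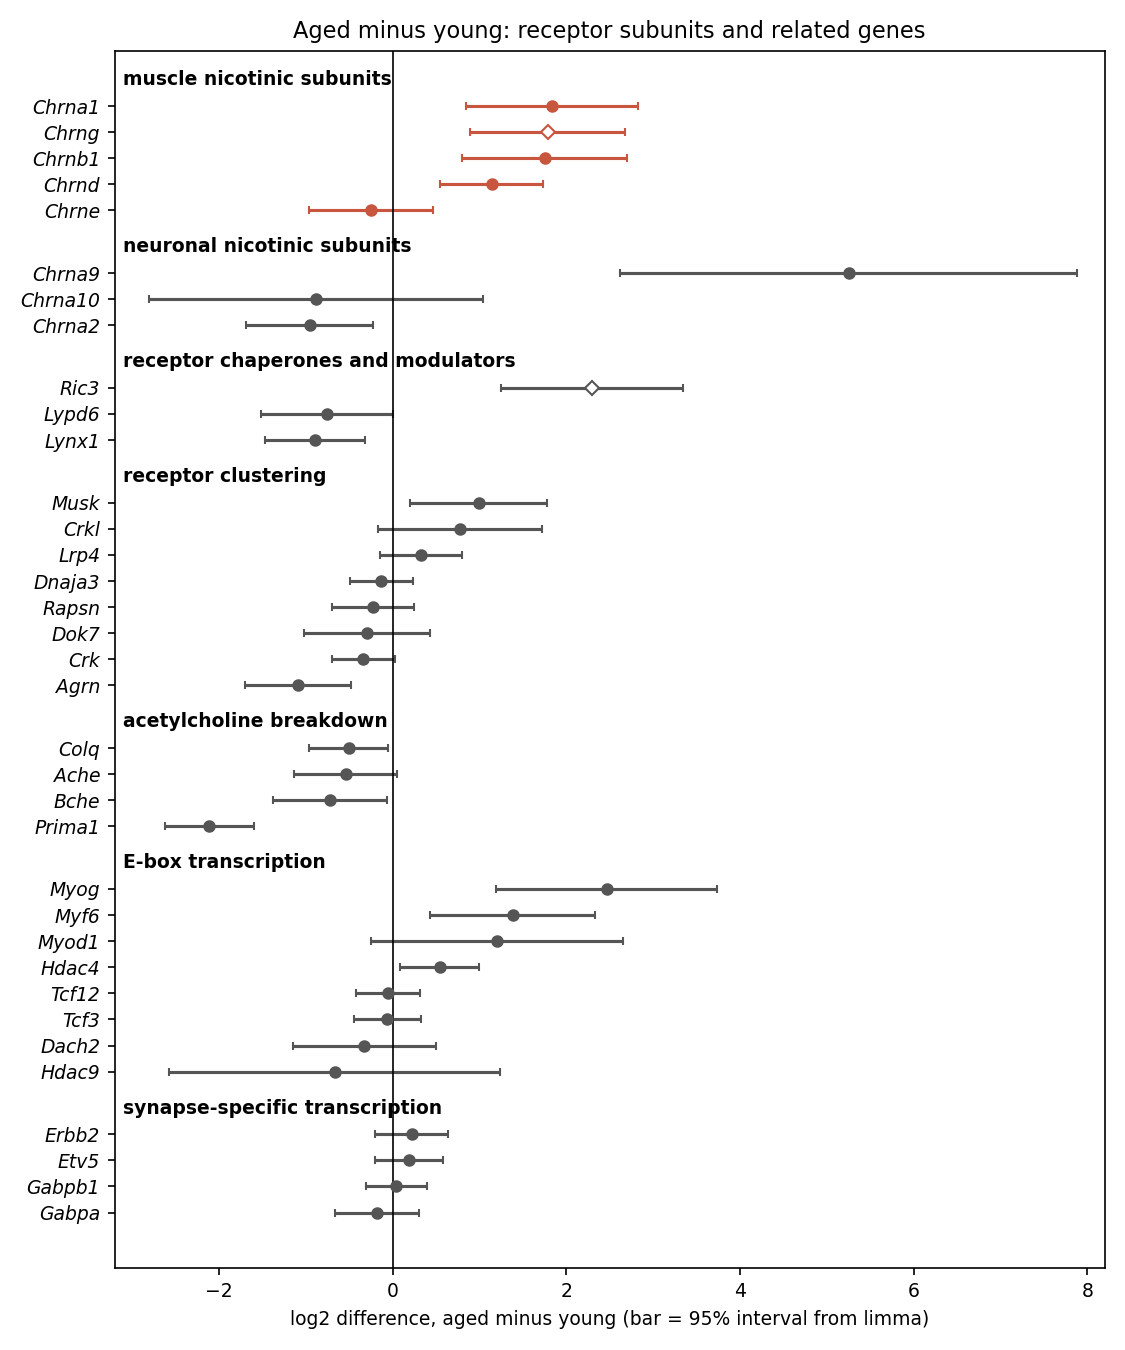
Difference between aged and young mice on the log2 scale (horizontal axis) of the 5 subunits (red) and of the tested genes of the lists arranged by role (grey), with 95% intervals from limma. Open diamonds mark genes well above background in no young mouse. For these the fitted difference is not a fold, and the interval rests on young signals not well above background. Chrna1, Chrng, Chrnb1 and Chrnd lie to the right of 0 with Myog, Musk and Chrna9, and the genes of acetylcholine breakdown lie to the left.

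Genes of developing muscle, which include other isoforms that are replaced in the adult as γ is by ε, were also read. Of 7 tested, 5 had higher and 2 lower means in aged mice (median 0.57), and 0 had an adjusted p under 0.05. Myh3, the embryonic myosin heavy chain, read 0.30, 0.53 and 0.89 in young mice and 2.77, 2.07 and 1.87 in aged mice (difference 1.66, SE 0.28, adjusted p = 0.0974). Unlike for Chrna1 and Myog, aged mouse 1 was the highest. Ncam1, an adhesion molecule found along denervated fibres, differed by 0.98 with its brightest probe (adjusted p = 0.233), but its 2 other probes gave 1.26 and -0.44 and the mean of its probes 0.60 (adjusted p = 0.420). Myl4, the embryonic myosin light chain, differed by 0.78 (adjusted p = 0.331).

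Of 11 neuronal nicotinic subunits, 3 were tested, and the 8 others were well above background on at most 2 arrays. Chrna9, which forms receptors of hair cells and is not a subunit of the muscle receptor, read -3.41, -3.77 and -2.13 in young mice and -0.51, 3.14 and 3.82 in aged mice. Its difference of 5.25 (SE 1.11, 95% interval 2.62 to 7.88, adjusted p = 0.143) was the second largest increase among the 20900 genes. Aged mouse 1 was again far below the other 2. Without aged mouse 1 the difference was 6.58 with an adjusted p of 0.0113 in limma, but age and slide row then coincide. With the row as a block it was 2.59. The probe was well above background in 2 young and 3 aged mice, so the 38.1-fold ratio of the means rests on a faint young signal. Chrna2 was lower in every aged mouse (-0.96, adjusted p = 0.254), and Chrna10, the usual partner of Chrna9, was detected on 4 arrays and differed by -0.89 with overlap (adjusted p = 0.639).

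Markers of other cells in the muscle were read beside the subunits. Muscle fibre genes had 1 higher and 10 lower means of 11 (median -0.20) and none had an unadjusted p under 0.05 in limma. Scaling each array to these genes gave 2.04 for Chrna1, 1.96 for Chrnb1, 1.35 for Chrnd, 1.99 for Chrng and -0.04 for Chrne. Of 5 motor neuron genes 0 were tested. Chat, the enzyme that makes acetylcholine, was well above background on 0 arrays and Slc18a3, its vesicular transporter, on 2. Schwann cell markers had 3 higher and 6 lower means of 9 (median -0.60), and their summed linear signal was 24.9 to 45.0 in young and 25.1 to 41.9 in aged mice, in units of the 75th percentile. Prx, of the myelin sheath, was the 1 of the 9 that passed the test (fell by 1.29, adjusted p = 0.0428). Mbp, another myelin gene, was higher in each aged mouse by 1.33 with its brightest probe (adjusted p = 0.0527), and its 2 other probes gave 1.12 and -0.03. Macrophage markers had 4 higher and 2 lower means of 6 (median 0.55), and 0 had an adjusted p under 0.05 in limma. Every aged mouse was above every young mouse for 3 of the 6 (7.92% of all genes), Cd68 (1.08), Adgre1 (0.64) and Mrc1 (0.46). Lyz2 (1.36), Itgam (-0.26) and Csf1r (-0.05) overlapped. The summed signal was 37.8 to 45.2 in young and 40.5 to 42.6 in aged mice, and it came mostly from Itgam and Csf1r, the brightest of the 6. Satellite cell markers had a median of -0.02 over 3 genes. Calcr was lower in each aged mouse than in any young mouse (-1.19, adjusted p = 0.306 in limma). It was well above background in 3 young mice and 1 aged mouse. Pax7 (-0.02) and Cdh15 (0.10) overlapped. The summed signal of the 3 genes was 14.0 to 14.6 in young and 14.2 to 16.6 in aged mice, and most of it came from the bright probe of Cdh15. Fibroblast markers were lower in mean for 5 of 5 (median -0.72), with a sum of 368 to 423 in young and 165 to 328 in aged mice, and so were erythrocyte markers for 5 of 5 (median -1.03), with a sum of 635 to 922 against 289 to 459. Endothelial markers had a median of -0.36 over 5 genes and a sum of 15.2 to 18.6 in young against 11.1 to 13.4 in aged mice, and adipocyte markers had a median of -0.29 over 4 genes and a sum of 49.98 to 55.8 against 36.2 to 55.5. Each summed signal is weighted toward the brightest probes of its list. The part of these marker differences in the values of the subunits was not tested.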

How the data were processed

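The authors deposited the scanner output of each array. The values used are linear intensities, namely the processed signal, from which background and trends within the array had been removed, and the median intensity of each spot and its surroundings. The signals were not scaled between arrays, and the deposited series matrix held the same intensities. The file headers name Feature Extraction 11.0.1.1 and the submitters' processing notes version 9.5.

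Flagged spots were left out, spots of a probe were averaged on the log2 scale and each array was centred on its 75th percentile. Probes were named by matching accessions to RefSeq (28331 of 55681). A probe was kept when well above background on at least 3 of 6 arrays, and a gene was its kept probe with the highest mean. The comparison of age groups used lmFit and eBayes of limma 3.58.1 (R 4.3.3) with age as the only term. Benjamini-Hochberg adjustment was over 20900 genes, with a threshold of 0.05. Of these, 13844 had a gene symbol. The others were counted as genes under the name given on the array, so 1 gene may be counted more than once. On simulated data, the fit recovered 0% of genes changed by 1 on the log2 scale, 72.5% of those changed by 2 and 85% of those changed by 3. The subunits and the lists were chosen with earlier results of these data known. Within each list, the genes named are those past the threshold and up to 3 with the smallest p. Ache, Rapsn and the marker genes were added after their values were seen. The alternatives were normexp (on the median spot signal, since the mean signal was not used here), other scalings, filters and probe rules, a mean-variance trend, blocks for the slide row or the replicate number, and leaving out each mouse. The 6 arrays were on 1 slide and in 1 scan.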

Additional observations from a re-analysis of the deposited data

How the results depend on the processing

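Of the 5 subunits, Chrna1, Chrnb1, Chrnd and Chrng kept a higher aged mean under each alternative that could be run. Chrnb1, Chrnd and Chrne had an adjusted p above 0.05 in limma throughout. Chrng could not be fitted where all 6 arrays had to be well above background. Without aged mouse 1, where age and slide row coincide, Chrna1 differed by 2.28 (adjusted p = 0.0349 in limma). Over the 6 fits that left out 1 mouse the Chrna1 difference ranged from 1.40 to 2.28. That of Chrne ranged from -0.48 to 0.086, the last without young mouse 1. Over all genes, 53 passed the threshold, against 8 with no filter on dim probes (36710 genes tested, 7 shared), 35 when detection on all 6 arrays was required (31 shared) and between 1 and 199 when 1 mouse was left out (199 without aged mouse 1 and 1 without aged mouse 3). The replicate numbers do not pair the mice (correlations of deviations -0.06, -0.27 and 0.03), and in a fit with replicate number as a block 5 genes passed and none of the 5 subunits or Prima1 (adjusted p = 0.110) did. The scaling moved the median of all genes from -0.06 to -0.21 (median scaling) or 0.15 (muscle fibre genes). Among pairs, Chrna1 minus Chrnb1 turned to -0.20 and Chrna1 minus Chrng to -0.23 with the mean of all probes, Chrng minus Chrnb1 to -1.30 and Chrng minus Chrnd to -0.72 with normexp. When 1 mouse was left out, Chrna1 minus Chrnb1 ranged from -0.27 to 0.42, Chrna1 minus Chrng from -0.55 to 0.36 and Chrng minus Chrnb1 from -0.38 to 0.37. The cause was not tested. Signal over background limits Chrng, Chrna9 and Ric3, whose young signals were faint or not well above background.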

Other observations

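Proteins that help nicotinic receptors fold or that modulate them were read from a list of 6 genes. Of these, 3 were tested, Ric3 only through the aged arrays, and 0 had an adjusted p under 0.05 in limma. Ric3, a chaperone of nicotinic receptor assembly, read -4.06, -4.33 and -5.63 in young mice, in none of which it was well above background, and -2.10, -2.88 and -2.15 in aged mice, in all of which it was. By the limit used for Chrng, the aged level was at least 2.97-fold higher. The difference of the measured values was 2.30, or 0.52 with normexp, and its p is not given. Its 2 other probes were well above background on 0 arrays. Lynx1, a membrane-anchored modulator of nicotinic receptors, read 5.87, 6.35 and 5.97 in young mice and 5.60, 4.96 and 4.95 in aged mice, a difference of -0.89 (SE 0.24, adjusted p = 0.202) without overlap, or -0.46 with the row of the slide as a block. Lypd6 of the same family differed by -0.75 with overlap (adjusted p = 0.348), and by -0.10 with a second probe. Tmem35a, Lypd1 and Ly6h were well above background on at most 1 array.

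Of the 5 muscarinic receptors, the other class of acetylcholine receptors, Chrm4 was the 1 that could be tested. It was detected on 4 arrays and differed by 0.30 with overlap (adjusted p = 0.729).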
